A study of Mus musculus with 72 samples.

Results

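Myokines are proteins that skeletal muscle releases and that act on the fibre itself or on distant organs, the brain among them. The 10 genes followed here were Ostn, Fndc5, Il15, Metrnl, Il6, Fgf21, Gdf15, Igf1, Fstl1 and Ctsb, taken by symbol from an RNA-seq table of mouse muscle, with a brain table of the same mice beside it. Of these 10 genes, 7 were listed in muscle and 6 in brain. Il6, Fgf21 and Gdf15 were not analysed here in either tissue, and Ostn not in brain. There were 13543 genes listed in muscle and 15431 in brain. All 7 and all 6 passed the filter on low counts that preceded the tests.

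The study asked how repeated neuromuscular electrical stimulation (NMES), in which current through the skin makes the muscle contract, changes gene expression in leg muscle and brain. Wild-type (WT) animals were compared with heterozygotes in which 1 Klotho allele was disrupted in every tissue (KlHET). Klotho encodes a membrane protein and circulating hormone linked to ageing. The KlHET strain was B6;129S5-Kl tm1Lex, and both genotypes were bred in house. NMES mice received 9 mA under 2.5% isoflurane, with 10 stimulations per set and 2 sets on each leg, in 5 sessions on alternate days. Control mice of both genotypes received isoflurane alone for 15 min on those days, and tissue was taken 24 h after the last session. Muscle was tibialis anterior pooled with extensor digitorum longus, and the brain labels name no region, whereas the methods name the prefrontal cortex for RNA isolation and the whole brain at collection. Age and sex are not in the labels. In each tissue the controls numbered 6 WT and 12 KlHET libraries and the stimulated groups 6 WT and 12 KlHET, 1 library per mouse, with no mouse in more than 1 group. The 4 groups of a tissue were fitted together.

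Several of these proteins reach the circulation by different routes. Ostn encodes osteocrin, also called musclin, a peptide related to natriuretic peptides that binds their clearance receptor Npr3. Fndc5 encodes the membrane precursor from which irisin is cleaved. Il15 encodes a cytokine that acts on lymphocytes and that muscle can make, and Metrnl a secreted protein of muscle and fat. Igf1 encodes the insulin-like growth factor that drives muscle growth. Fstl1 encodes a secreted glycoprotein made by mesenchymal cells and muscle, and Ctsb encodes cathepsin B, a lysosomal cysteine protease that muscle can release.

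Depth ran from 14.84 to 24.45 M reads in muscle (median 17.96 M) and from 16.97 to 27.99 M reads in brain (median 21.4 M). Summed markers of muscle fibres lay between 74800 and 132000 CPM in every muscle library, and neuron markers between 5490 and 12100 CPM in every brain library. Muscle library KlHET NMES replicate 9 stood apart, with 6.39% of its reads on 15 mitochondrial transcripts against 18.6% to 33.6% in the others, and with the highest scaling factor (1.228). Kl itself was read only in brain and did not separate the labelled genotypes. Its median was 3.28 CPM in WT Control, 3.41 in WT NMES, 2.83 in KlHET Control and 2.68 in KlHET NMES (KlHET against WT in controls 0.38 ± 0.51 log2, SE, limma adjusted p = 0.807). Its highest values were 6.79, 7.39, 29.1 and 18.1 CPM in these groups. Markers of the choroid plexus, a tissue known to express Kl, summed to between 3.76 and 1790 CPM over the brain libraries, with highest sums of 89.0, 126, 1790 and 952 CPM in the same groups, and their part in the Kl comparison was not tested. Genotype names therefore rest on the labels. The animal numbers of WT and KlHET mice come from separate series, so breeding cohort and genotype cannot be told apart.

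Levels are given as CPM (a gene's reads over the library's total, on a common scale) after TMM scaling, which evens out differences in composition between libraries. Differences are log2 fold changes of CPM + 0.5 with their SE, from limma, with p-values adjusted over all genes tested in the tissue. In bulk tissue, fewer cells of a type and less RNA per cell cannot be told apart.

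Per kb of annotated exon, Ctsb was the most abundant of the 7 transcripts in muscle and Igf1 the least. In WT Control muscle Ctsb stood at 50.7 ± 1.83 CPM per kb (SD, n = 6) and Fndc5 at 37.0 ± 4.25. Fstl1 followed at 12.2 ± 3.34, Ostn at 6.58 ± 1.77 and Il15 at 6.40 ± 1.47. Metrnl was at 3.20 ± 0.656 and Igf1 at 1.73 ± 0.622 CPM per kb. Ostn and Il15 did not differ beyond their spread in these controls, whereas the libraries of Ctsb, Fndc5 and Fstl1 did not overlap one another. The order was the same in KlHET Control and KlHET NMES muscle. In WT NMES muscle Ostn, at 13.8 ± 5.37 CPM per kb, came before Fstl1, at 9.59 ± 1.76, and their ranges overlapped.

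The first question was whether NMES shifted these transcripts in muscle. None of the 7 passed in the comparison over both genotypes (0 of 7 by limma, 0 of 7 by the edgeR quasi-likelihood test and 2 of 7 by DESeq2, Ostn and Ctsb), while limma called 1.78% of all tested genes and DESeq2 3.49%. At an unadjusted p under 0.05 there were 3 of 7 (Ostn, Ctsb and Fstl1), against 17.5% of all genes. Within WT, limma called 0 of 7 against 0.0148% of all genes, and 2 of 7 unadjusted (Ostn and Fndc5) against 8.89%. Within KlHET it called 0 of 7 against 0.644% of all genes, and 2 of 7 unadjusted (Ctsb and Fstl1) against 13.9%. The edgeR test called 0 of 7 in both genotypes, and DESeq2 called 0 of 7 in WT, against 0.118% of its genes, and 1 of 7, Ctsb, in KlHET, against 1.83%. Every library's level is shown in the plot of the 7 transcripts.

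**Figure D1:**
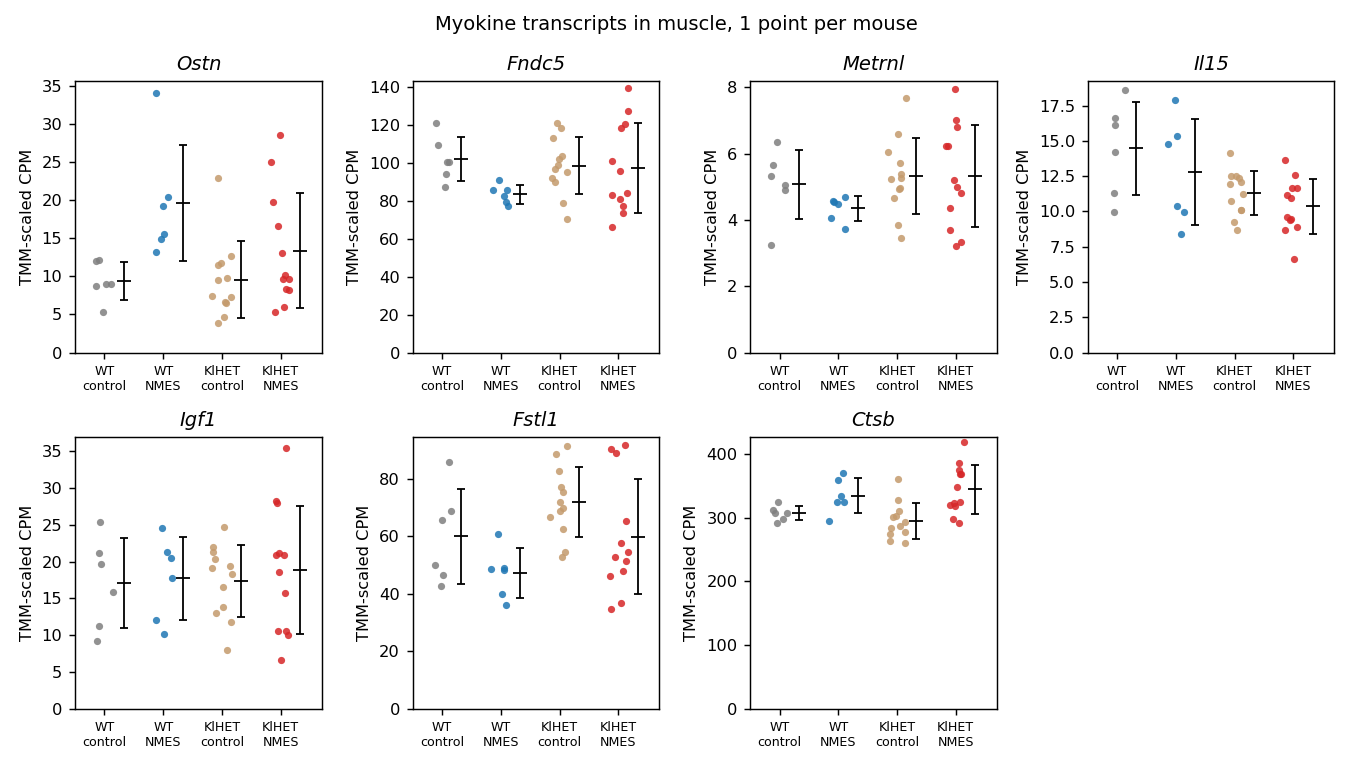
Levels of the 7 myokine transcripts in muscle (y axes, TMM-scaled CPM, from 0) in the 4 groups (x axes), with 1 point per mouse and the mean ± SD as a black bar beside the points (n = 6 for WT and 12 for KlHET groups). All 6 WT NMES points of Ostn, from 13.2 CPM upward, lie above all 6 WT Control points, which end at 12.2 CPM, whereas the groups overlap in every other panel and in the KlHET pair of Ostn.

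Ostn (mm10 chromosome 16, 27307489 to 27351212, plus strand), the natriuretic-peptide-like myokine, had the largest estimate of the 7 after NMES. In WT Control muscle it was at 12.0, 12.2, 9.02, 9.04, 8.71 and 5.30 CPM, and in WT NMES muscle at 19.3, 34.2, 20.4, 13.2, 14.9 and 15.6 CPM, from 105 to 596 reads per library. The WT groups did not overlap, which held for no other member here and for 0.955% of all genes (0.674% with NMES higher). The mean was 9.37 ± 2.52 CPM in controls and 19.6 ± 7.64 after NMES (SD, n = 6 each), a log2 difference of 1.00 ± 0.36 (95% interval 0.28 to 1.72). This did not pass over all genes (limma, unadjusted p = 0.00815, adjusted p = 0.411), although Ostn's estimate lay at percentile 99.9 of all genes. Without WT NMES replicate 2, the library at 34.2 CPM, the WT difference was 0.83 (limma adjusted p = 0.499).

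In KlHET muscle the Ostn distributions overlapped widely, and the groups were free of overlap for 0.0074% of all genes. KlHET Control libraries ran from 3.94 to 23.0 CPM with a median of 8.48 and a mean of 9.55 ± 5.06 (SD, n = 12), the highest being replicate 5. KlHET NMES libraries ran from 5.36 to 28.5 CPM with a median of 9.93 and a mean of 13.4 ± 7.54 (n = 12), the highest being replicates 3 and 5. Of the 12 KlHET NMES libraries, 8 lay above the control mean and 2 above the highest control, and the difference was 0.43 ± 0.25 (limma adjusted p = 0.456). The response did not differ detectably between genotypes (interaction -0.57 ± 0.44, 95% interval -1.46 to 0.31, limma p = 0.196, adjusted p = 1.00). Over both genotypes the difference was 0.71 ± 0.22 (limma adjusted p = 0.0804). It passed without KlHET Control replicate 5 (0.78, adjusted p = 0.0465), without KlHET NMES replicate 9 (0.75, adjusted p = 0.0485) and with DESeq2 (0.78, adjusted p = 0.0319), and over the 10 other settings run the adjusted p ranged from 0.0319 to 0.189. Most slow fibre markers had higher estimates with NMES beside Ostn, although their summed median was lower in KlHET NMES than in KlHET Control. Of 8 such markers 7 had estimates above 0 in WT (median 0.91), 7 in KlHET (median 0.23) and 7 over both genotypes (median 0.57), with 0 called in any. Their summed level had medians of 212 CPM (148 to 480) in WT Control, 308 (115 to 483) in WT NMES, 414 (146 to 757) in KlHET Control and 323 (142 to 1640) in KlHET NMES. Of 11 adipocyte markers, 8 had estimates above 0 in WT (median 0.19), 9 in KlHET (median 0.56) and 9 over both genotypes (median 0.40), with 0 called. With scores of adipocyte and slow fibre markers in the model, the Ostn difference was 0.86 in WT (limma adjusted p = 0.511) and 0.63 over both genotypes (adjusted p = 0.115). Within the Ostn locus the annotation places an antisense gene, Gm32312, and a processed pseudogene, Gm15970, and because no source states whether counting used strand, their reads could not be separated from those of Ostn.

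Ctsb (chromosome 14, 63122462 to 63145923, plus strand), the lysosomal protease, showed a small and even difference. KlHET Control libraries ran from 260 to 361 CPM (median 291) and KlHET NMES libraries from 292 to 418 CPM (median 336), with means of 295 ± 28.4 and 345 ± 38.5 CPM (SD, n = 12 each). Of 12 KlHET NMES libraries, 11 lay above the control mean and 5 above the highest control. The KlHET difference was 0.22 ± 0.06 (unadjusted p = 0.000447), just short of the threshold (limma adjusted p = 0.0581). WT Control libraries stood at 307, 324, 307, 292, 299 and 312 CPM and WT NMES libraries at 360, 334, 370, 294, 325 and 324 CPM. Of these 6 NMES libraries, 5 lay above the highest control and replicate 4 lay inside the control range, a difference of 0.12 ± 0.08 (limma adjusted p = 0.682). The interaction was 0.10 ± 0.10 (unadjusted p = 0.320). Over both genotypes Ctsb differed by 0.17 ± 0.05 (limma adjusted p = 0.0617, range over 10 other settings 0.0237 to 0.299).

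Whether Ctsb counted as called turned on single libraries. For both genotypes it passed without WT NMES replicate 4 (adjusted p = 0.0486), KlHET Control replicate 2 (0.0401), KlHET NMES replicate 8 (0.0411) or KlHET NMES replicate 9 (0.0400), with estimates of 0.18 to 0.19. Within KlHET it passed without the last 3 of these (adjusted p = 0.0267, 0.0256 and 0.0460). The 3′ end of Ctsb overlaps Fdft1 on the opposite strand, whose reads could not be separated without strand.

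Fndc5 (chromosome 4, 129136999 to 129144593, plus strand), the irisin precursor, lay lower after NMES in WT and not in KlHET. WT Control libraries held 110, 101, 94.3, 121, 101 and 87.6 CPM and WT NMES libraries 82.6, 86.1, 91.1, 79.3, 77.2 and 85.7 CPM. All 6 NMES libraries were below the control mean and 5 of 6 below the lowest control, with means of 102 ± 11.7 and 83.7 ± 5.05 CPM (SD, n = 6 each). The WT difference of -0.28 ± 0.14 had an unadjusted p of 0.04998 and did not pass (limma adjusted p = 0.562). KlHET means were 98.6 ± 15.0 CPM in controls and 97.4 ± 23.9 after NMES (n = 12 each), a difference of -0.04 ± 0.10 (adjusted p = 0.891), and the interaction of 0.24 ± 0.17 did not pass either (unadjusted p = 0.165). The KlHET NMES libraries were the most dispersed, from 66.4 to 140 CPM.

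Fstl1 (chromosome 16, 37776873 to 37836514, plus strand), the secreted glycoprotein of mesenchymal cells, had lower means after NMES in both genotypes. They were 60.0 ± 16.4 CPM in WT Control and 47.1 ± 8.67 in WT NMES (SD, n = 6 each), and 71.9 ± 12.1 in KlHET Control and 59.9 ± 20.2 in KlHET NMES (n = 12 each). In WT, 5 of 6 NMES libraries lay below the control mean, and in KlHET 9 of 12 did, yet KlHET NMES replicates 1, 4 and 12, at 91.7, 89.1 and 90.5 CPM, reached the top of the control range. The difference was -0.32 ± 0.20 in WT, -0.31 ± 0.14 in KlHET and -0.32 ± 0.12 over both (limma adjusted p = 0.161). Markers of several other cell types lay lower alongside it. All 12 of the 12 fibroblast markers had estimates below 0 over both genotypes, with a median of -0.22 against -0.01 for all genes and 0 of 12 called. Their summed level had medians of 887 CPM (705 to 1360) in WT Control, 643 (476 to 846) in WT NMES, 1100 (683 to 1360) in KlHET Control and 825 (403 to 1750) in KlHET NMES. All 12 endothelial markers also had estimates below 0 (median -0.29, 1 called lower), as did 11 of 12 macrophage markers (median -0.17, 0 called). The summed endothelial level had medians of 692, 547, 820 and 617 CPM in the same order of groups, and the macrophage level 92.8, 67.6, 88.6 and 87.0 CPM. The part of the endothelial and macrophage markers in the Fstl1 difference was not tested. With the fibroblast score as a covariate, a setting chosen after seeing the data, the Fstl1 difference was -0.03 over both genotypes (adjusted p = 0.848), 0.04 in WT and -0.10 in KlHET. Within groups Fstl1 and this score moved closely together (Pearson r = 0.94), so that fit cannot separate them. The part of fibroblasts was therefore not tested either. Adjusted for scores of adipocyte and of slow fibre markers, the Fstl1 difference was -0.38 over both genotypes (adjusted p = 0.0277) and -0.46 in KlHET (adjusted p = 0.0252).

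For Il15, Metrnl and Igf1 no NMES comparison reached an unadjusted p under 0.05. Il15 (chromosome 8, 82331632 to 82403222, minus strand) had means of 14.5 ± 3.32 CPM in WT Control, 12.8 ± 3.73 in WT NMES (SD, n = 6 each), 11.3 ± 1.58 in KlHET Control and 10.4 ± 1.94 in KlHET NMES (n = 12 each). Its NMES difference was -0.16 ± 0.10 over both genotypes (limma adjusted p = 0.402). Metrnl (chromosome 11, 121701544 to 121716306, plus strand), the fat and muscle factor, ran at 5.08 ± 1.04, 4.35 ± 0.374, 5.32 ± 1.14 and 5.32 ± 1.54 CPM in the same order, from 47 to 182 reads per library. All 6 WT NMES libraries of Metrnl lay below the WT Control mean, but none below the lowest control, and the WT difference was -0.18 ± 0.18 (adjusted p = 0.778). Igf1 (chromosome 10, 87858265 to 87937042, plus strand), the growth factor, stood at 17.1 ± 6.17, 17.7 ± 5.60, 17.4 ± 4.84 and 18.9 ± 8.71 CPM. Its NMES difference over both genotypes was 0.05 with a 95% interval from -0.35 to 0.45. With the fibroblast score in the model it was 0.36 over both genotypes (adjusted p = 0.338), 0.46 in WT and 0.26 in KlHET, none of which passed. The antisense gene Igf1os overlaps Igf1.

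**Figure D2:**
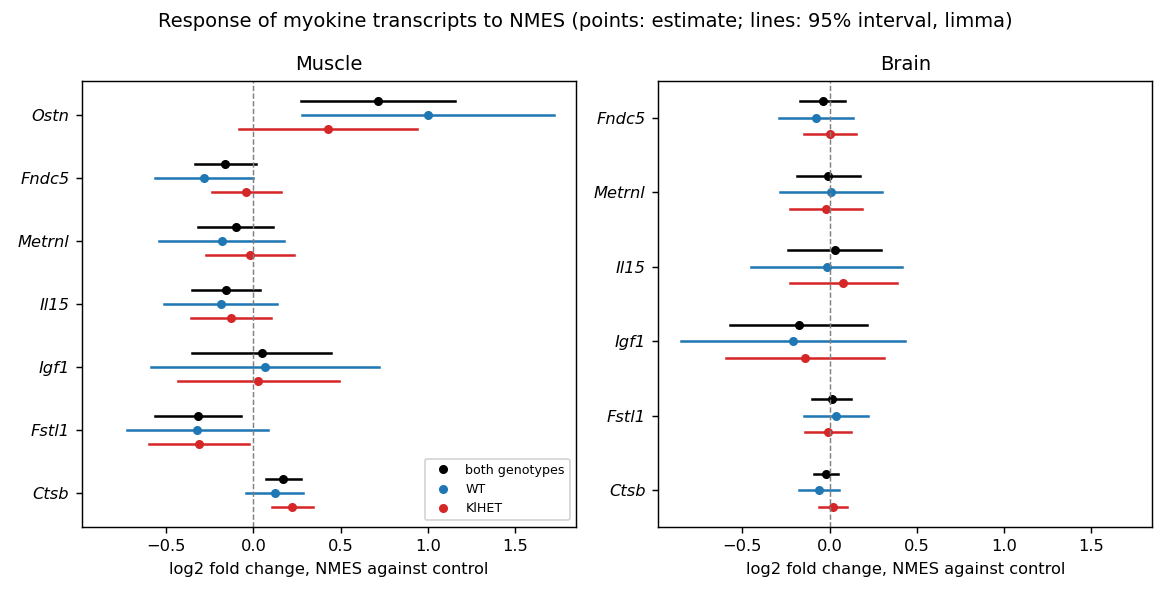
Log2 fold changes of NMES against control (x axes) for each myokine transcript (y axes) in muscle (left) and brain (right), over both genotypes (black), in WT (blue) and in KlHET (red), with points for the limma estimate and lines for the 95% interval. In muscle the interval over both genotypes lies above 0 for Ostn (0.27 to 1.16) and Ctsb (0.07 to 0.27) and below 0 for Fstl1 (-0.57 to -0.07), before adjustment over all genes, and in brain every interval covers 0.

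The second question was whether the genotypes differed. In controls, limma called 0 of 7 members between KlHET and WT against 6% of all genes, and 1 of 7 unadjusted (Il15) against 23.2%. After NMES it called 0 of 7 against 19.1% of all genes, and 1 of 7 unadjusted (Ostn) against 33.5%. For all 7 members the genotypes overlapped in level, whereas they did not for 0.866% of all genes in controls and 1.04% after NMES. The edgeR test and DESeq2 also called 0 of 7 in both. The interaction was called for 0 of 7 members and for 0% of genes by limma, and for 0 members and 0 genes by edgeR and DESeq2 (0 of 7 and 3.52% of genes unadjusted).

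Il15 was the member with the most even genotype difference. All 12 KlHET Control libraries, from 8.67 to 14.1 CPM, lay below the WT Control mean of 14.5 CPM, though only 2 lay below the lowest WT library at 9.94 CPM. The difference was -0.32 ± 0.14 in controls (limma adjusted p = 0.144) and -0.27 ± 0.14 after NMES (adjusted p = 0.173, 11 of 12 libraries below the WT NMES mean). With a term for whether Xist, the RNA of the inactive X chromosome, was higher than the Y-linked genes, Il15 passed in both (-0.35, adjusted p = 0.0377, and -0.33, adjusted p = 0.0299). Adjusted for scores of adipocyte and of slow fibre markers, it passed in controls (-0.41, adjusted p = 0.0372). Between libraries in which Xist exceeded the Y-linked genes and the rest, a division read from the data, limma called 2 of 7 members in muscle, Il15 and Igf1, against 9.26% of all genes. In brain it called 0 of 6, also unadjusted, against 0.0779%. Il15ra, which presents the cytokine, was lower in KlHET after NMES (-0.43 ± 0.15, adjusted p = 0.0344).

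For Ostn the genotype difference was -0.07 ± 0.31 in controls (95% interval -0.70 to 0.56). After NMES it was -0.64 ± 0.31 and did not pass (limma unadjusted p = 0.0441, adjusted p = 0.137). Of 12 KlHET NMES libraries, 8 lay below the lowest WT NMES library at 13.2 CPM. Without WT NMES replicate 2 this difference was -0.47 (adjusted p = 0.319). Fstl1 means were higher in KlHET in both states, by 0.28 ± 0.17 in controls and 0.29 ± 0.17 after NMES (adjusted p = 0.331 and 0.235), and with the fibroblast score as a covariate the differences were 0.14 and 0.00. Here too the fit cannot separate Fstl1 from the score, and the part of fibroblasts was not tested. Of the 12 fibroblast markers, 0 were called between genotypes in controls, and 2 of 12 were higher in KlHET after NMES, a share under the 19.1% of all genes, the collagen gene Col1a2 by 0.97 ± 0.30 and Pi16 by 0.83 ± 0.29. Fndc5, Metrnl, Igf1 and Ctsb differed by -0.06 to 0.06 in controls and by 0.01 to 0.22 after NMES. The median of all genes moved from 0.02 to 0.14 after NMES when libraries were scaled by total counts alone, so small genotype differences in stimulated muscle carry that uncertainty.

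Receptors, regulators, other secreted factors and lysosomal genes were described from lists chosen with earlier results of these data known. For NMES these lists are read against the 1.78% of all genes called over both genotypes, 0.0148% in WT and 0.644% in KlHET. A count of 0 in a list of 24 or 25 genes lies near those shares. Of 24 tested receptors and binding partners, 0 were called with NMES in either genotype or over both, with a median over both of -0.07 against -0.01 for all genes. Of 25 regulators and stress-response genes, 0 were called as well (median -0.03). Of 31 other secreted muscle factors, 1 was called higher and 1 lower over both genotypes. Agt, the angiotensin precursor, rose by 1.13 ± 0.11 (adjusted p = 3.82e-08), with 1.07 ± 0.18 in WT (adjusted p = 0.0063) and 1.19 ± 0.13 in KlHET (adjusted p = 4.7e-07). Cxcl12, the stromal chemokine, fell by 0.31 on the log2 scale over both genotypes (adjusted p = 0.0353) and by 0.40 in KlHET (adjusted p = 0.0246). Of 17 lysosomal peptidases and markers, the class to which Ctsb belongs, 1 was called. Ctsf, another cysteine cathepsin, rose by 0.22 ± 0.05 over both genotypes (adjusted p = 0.0263) and by 0.25 ± 0.06 in KlHET (adjusted p = 0.033), and the median of the list was 0.00.

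Between genotypes the listed genes are read against the 6% of all genes called in controls and the 19.1% called after NMES. In controls 3 of 24 receptors and binding partners were higher in KlHET and 0 lower: Il6st, the shared signalling chain of the Il6 family, by 0.34 ± 0.09, the FGF receptor Fgfr1 by 0.31 ± 0.09, and Igf2r, which clears Igf2 and sorts lysosomal enzymes, by 0.52 ± 0.16. After NMES 5 of 24 were higher and 1, Il15ra, lower, near the 19.1% of all genes. The highest by size was Il6ra, the Il6 receptor chain, at 1.11 ± 0.29 (adjusted p = 0.00737), followed by Igf2r at 0.67 ± 0.16, Il6st at 0.41 ± 0.09, Fgfr1 at 0.40 ± 0.09 and Itgb5, a chain of an integrin that binds irisin, at 0.39 ± 0.11. The list's median was 0.14 in controls and 0.17 after NMES, against 0.02 for all genes in each.

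Of 25 regulators and stress-response genes, Asns, the asparagine synthetase of the amino acid response, was higher in KlHET by 0.77 ± 0.19 in controls (adjusted p = 0.0147) and by 0.95 ± 0.19 after NMES (adjusted p = 0.00107). Stat5a, which carries growth hormone signals, was higher by 0.37 ± 0.11 and 0.29 ± 0.11. Atf4, the stress transcription factor upstream of Asns, was lower in controls (-0.23 ± 0.06, adjusted p = 0.0253). After NMES Foxo3, a regulator of atrophy genes, was higher (1.02 ± 0.29) and Ddit3, a factor of the unfolded protein response, lower (-0.63 ± 0.17). These made 2 of 25 higher and 1 lower in controls, against 6% of all genes called, and 3 higher and 1 lower after NMES, a share under the 19.1% of all genes.

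Of 31 other secreted factors, 1 was higher in KlHET controls, Angptl4, an inhibitor of lipoprotein lipase (1.33 ± 0.41, adjusted p = 0.0456), and 0 were lower. After NMES 4 of 31 were higher and 1 lower, also under the 19.1% of all genes: Angptl4 by 1.51 ± 0.41, the TGF-beta relative Gdf11 by 0.82 ± 0.26, the activin-binding Fstl3 by 0.52 ± 0.16 and the growth factor Fgf1 by 0.50 ± 0.09, with the inflammatory cytokine Mif at -0.40 ± 0.12. Of 17 lysosomal genes, 0 were called in controls. After NMES, where 19.1% of all genes were called, the asparagine-specific protease Lgmn was higher by 0.33 ± 0.10, and the carboxypeptidase Ctsa was lower (-0.38 ± 0.12).

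Beyond the group means, each member was set against marker lists of other cell types over the 36 muscle libraries, on log2 levels with the group means subtracted (70 correlations, permutation within groups). Fstl1 followed the fibroblast score most closely of all (Pearson r = 0.94, Spearman rho = 0.94, permutation p = 1e-05 each, the smallest the permutations can give, adjusted p = 0.00035, r = 0.93 once the 2 most extreme scores were left out). Within WT r was 0.92 and within KlHET 0.95. Fstl1 also followed macrophage markers (r = 0.85, rho = 0.81, permutation p = 1e-05, adjusted p = 0.00035, r = 0.81 without 2) and adipocyte markers (r = 0.62, rho = 0.66, permutation p = 0.00043 and 8e-05, adjusted p = 0.00752 and 0.00187, r = 0.62 without 2). Igf1 followed fibroblast markers less tightly (r = 0.65, rho = 0.60, permutation p = 0.00021 and 0.00057, adjusted p = 0.0049 and 0.00798, r = 0.56 without 2). Igf1 also ran against muscle fibre markers and slow fibre markers, by rank only (rho = -0.58 and -0.54, permutation adjusted p = 0.00595 and 0.0119, r = -0.45 and -0.40, adjusted p = 0.0546 and 0.0898). For these r was -0.58 and -0.53 without 2, -0.80 and -0.81 within WT, and -0.31 and -0.25 within KlHET. Both lists hold the slow fibre genes Myh7, Tnnt1 and Tnni1, so these relations of Igf1 are not independent of each other. Igf1 was also lower in libraries where Xist exceeded the Y-linked genes (-0.69 log2, limma adjusted p = 0.00225, group means kept). That division was not held fixed in the permutations, and its part in the relations of Igf1 was not tested. For Ostn, Fndc5, Il15 and Ctsb no Pearson correlation with a marker list passed the adjustment, and Metrnl passed only by rank with fibroblast markers (r = 0.49, adjusted p = 0.074, rho = 0.53, adjusted p = 0.0293, both by permutation).

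**Figure D3:**
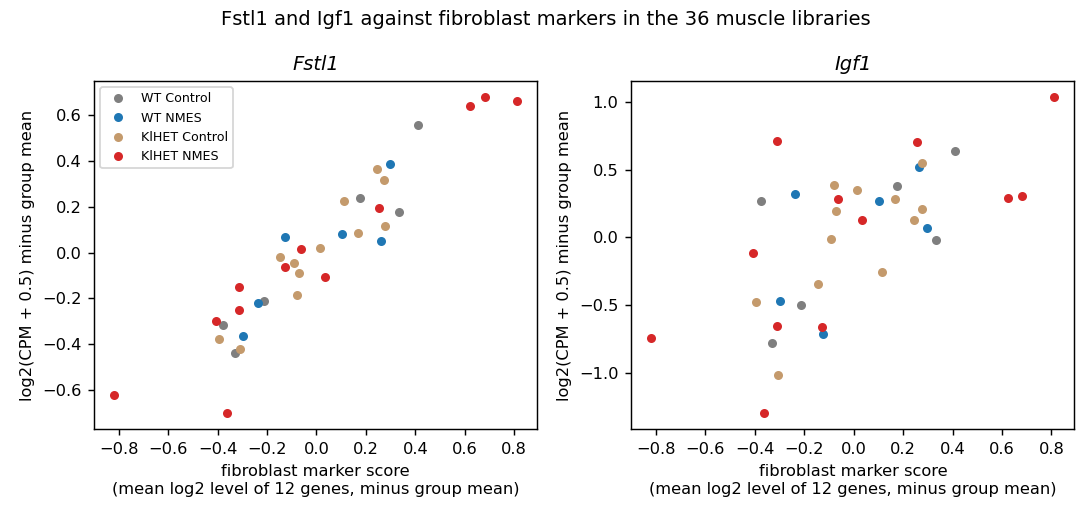
Log2 level of Fstl1 (left) and Igf1 (right), each minus its group mean (y axes), against the fibroblast marker score, the mean log2 level of 12 marker genes minus its group mean (x axes), with 1 point per muscle library (n = 36) coloured by group. Fstl1 points lie close to a line (Pearson r = 0.94), and Igf1 points scatter more widely around one (r = 0.65).

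Among the members themselves, 21 pairs were compared in muscle in the same way. Igf1 and Fstl1 moved together (r = 0.65, rho = 0.57, permutation p = 0.00018 and 0.00121, adjusted p = 0.00378 and 0.0254, r = 0.56 without the 2 farthest libraries). Il15 and Ctsb did so less strongly (r = 0.47, rho = 0.48, permutation p = 0.00255 and 0.00328, adjusted p = 0.0268 and 0.0293, r = 0.41 without 2). Il15 and Igf1 moved in opposite directions (r = -0.47, rho = -0.49, permutation p = 0.00586 and 0.00418, adjusted p = 0.041 and 0.0293, r = -0.42 without 2), with r = -0.80 within WT and -0.29 within KlHET. In muscle libraries where Xist exceeded the Y-linked genes, Il15 was higher and Igf1 lower (0.36 and -0.69 log2, group means kept). Ctsb was higher there by 0.09 ± 0.05, which did not pass (limma adjusted p = 0.238). The permutations did not hold this division fixed, and its part in the pairs with Il15 or Igf1 was not tested. No pair with Ostn or Fndc5 passed, and Metrnl passed only by rank with Fstl1 (r = 0.46, adjusted p = 0.0784, rho = 0.48, adjusted p = 0.0333, by permutation).

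The genes whose residual levels were most like each member in muscle, out of 12581 compared over the same 36 libraries, are given as a description. They were Vps29 (r = 0.61), Pgk1 (0.59) and Snhg5 (0.57) for Ostn, and Dusp22 (0.80), Dhrs4 (0.77) and Mrpl3 (0.76) for Fndc5. For Il15 they were H19 (0.69), Kdm5c (0.67) and Xist (0.66), and for Metrnl Serpinb8 (0.75), Dnm1 (0.75) and Lmo2 (0.74). Igf1 was most like the collagen-processing enhancer Pcolce (0.84), Rcn3 (0.80) and Aldh1a2 (0.80), and Fstl1 like Rnase4 (0.88), the extracellular superoxide dismutase Sod3 (0.87) and Fndc1 (0.87). Ctsb was most like Sh3rf2 (0.72), Mknk1 (0.69) and Ppp1r1a (0.68). Depth, cell type markers and whether Xist exceeded the Y-linked genes varied between these libraries, so the list orders likeness only.

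In brain the 6 listed members showed no difference that passed. limma called 0 of 6 in every comparison, against 0% of all genes for NMES over both genotypes, in WT, in KlHET and for the interaction. KlHET and WT differed for 0.0714% of all genes in controls and for 0.0974% after NMES. At an unadjusted p under 0.05 there were also 0 of 6, against 1.99%, 2.73%, 2.04%, 2.95%, 10.4% and 4.27% of all genes in the same order, and edgeR and DESeq2 called 0 of 6. The groups overlapped for all 6, whereas they did not for 0.214% of genes with NMES in WT, 0% in KlHET, 0.0195% between genotypes in controls and 0.0325% after NMES. Per kb in WT Control brain, Ctsb stood at 125 ± 7.88 CPM per kb (SD, n = 6), Fndc5 at 39.3 ± 5.18, Fstl1 at 8.22 ± 0.803, Metrnl at 3.41 ± 0.455, Igf1 at 1.71 ± 0.747 and Il15 at 0.378 ± 0.185, an order shared by all 4 groups. The tables of muscle and brain were scaled separately, so levels were not tested across them.

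**Figure D4:**
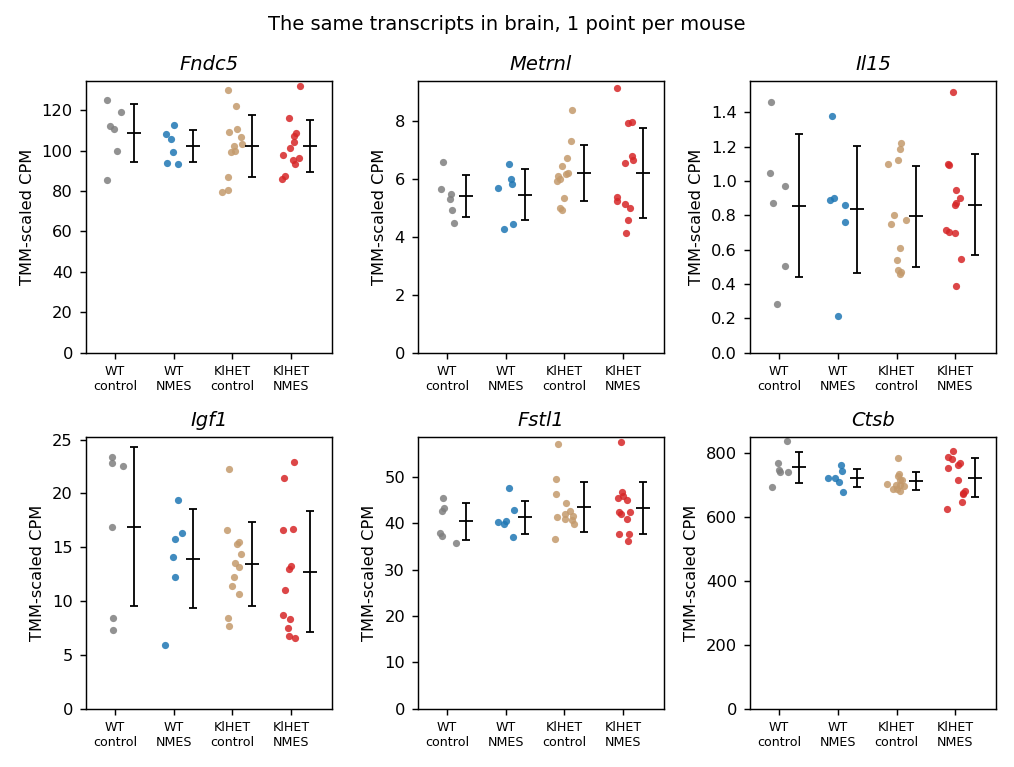
Levels of the 6 myokine transcripts listed in brain (y axes, TMM-scaled CPM, from 0) in the 4 groups (x axes), with 1 point per mouse and the mean ± SD as a black bar beside the points (n = 6 for WT and 12 for KlHET groups). The groups overlap in every panel, and Igf1 has the widest spread relative to its level apart from Il15, which rests on 5 to 35 reads per library.

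Ctsb, the protease, was the steadiest brain member, at 755 ± 47.7 CPM in WT Control, 723 ± 28.8 in WT NMES (SD, n = 6 each), 711 ± 28.1 in KlHET Control and 723 ± 61.2 in KlHET NMES (n = 12 each). Its NMES difference over both genotypes was -0.02 with a 95% interval from -0.09 to 0.05. Of 12 KlHET Control libraries, 11 lay below the WT Control mean (-0.09 ± 0.05, limma adjusted p = 0.538). Fndc5 lay between 102 and 109 CPM in all 4 group means, with an NMES difference of -0.04 (95% interval -0.17 to 0.09). Igf1 ranged from 5.89 to 23.4 CPM over the libraries, with means of 16.9 ± 7.40, 13.9 ± 4.6, 13.4 ± 3.91 and 12.7 ± 5.64 CPM in the order of groups above. Its NMES difference was -0.18 with an interval from -0.57 to 0.22. Fstl1 means lay between 40.4 and 43.6 CPM, Metrnl means between 5.41 and 6.21 CPM and Il15 means between 0.793 and 0.860 CPM.

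The brain members were set against marker lists in the same way (54 correlations). Igf1 followed astrocyte markers (r = 0.65, rho = 0.66, permutation p = 5e-05 and 6e-05, adjusted p = 0.0009 and 0.00108, r = 0.73 without the 2 farthest libraries). It ran against oligodendrocyte markers (r = -0.70, rho = -0.75, permutation p = 2e-05 and 1e-05, adjusted p = 0.00081 and 0.00054, r = -0.83 without 2). Fstl1 followed markers of smooth muscle and pericytes (r = 0.67, rho = 0.64, permutation p = 3e-05 and 4e-05, adjusted p = 0.00081 and 0.00108, r = 0.59 without 2). Fndc5 followed astrocyte markers (r = 0.55, rho = 0.64, permutation adjusted p = 0.00833 and 0.00148, r = 0.62 without 2). Metrnl followed oligodendrocyte markers (r = 0.62, rho = 0.54, permutation adjusted p = 0.00175 and 0.0157, r = 0.53 without 2), with r = 0.10 within WT and 0.75 within KlHET. Ctsb ran against astrocyte markers (r = -0.55, rho = -0.52, permutation adjusted p = 0.00902 and 0.0177, r = -0.48 without 2). Igf1 also passed by both measures with fibroblast markers (r = 0.44, rho = 0.46, permutation adjusted p = 0.032 and 0.0432, r = 0.44 without 2). Only 10 of these 12 markers were listed in brain, and whether they mark fibroblasts there was not tested. Other relations passed by r or by rho alone, among them Fstl1 against neuron markers (r = -0.61, permutation adjusted p = 0.00902, r = -0.22 without 2). Igf1 followed neuron markers by rank only (rho = 0.56, permutation adjusted p = 0.00594, r = 0.32, adjusted p = 0.107, r = 0.58 without 2). Of 15 member pairs, Fndc5 and Igf1 moved together (r = 0.69, rho = 0.68, permutation p = 1e-05 and 3e-05, adjusted p = 0.00015 and 0.00045, r = 0.64 without 2). Igf1 and Ctsb moved in opposite directions (r = -0.54, rho = -0.51, permutation p = 0.00249 and 0.00423, adjusted p = 0.0187 and 0.0317, r = -0.53 without 2). These brain relations share members and marker lists, so they are not independent of each other.

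Because both tissues came from the same 36 mice, each member's muscle level was also set against its brain level, after the group means were subtracted. None of the 6 passed. The closest was Metrnl (r = 0.38, rho = 0.39, permutation p = 0.0446 and 0.0289, adjusted p = 0.268 and 0.173, r = 0.28 without the 2 farthest mice). The other 5 had r between -0.23 for Ctsb and 0.16 for Fndc5.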

How the data were processed

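Total RNA libraries of muscle and brain were sequenced with paired reads, and the authors used Rsubread for alignment to mm10 and edgeR 4.0.16 for the expression analysis. The authors deposited 1 table per tissue whose values are CPM. The tables held no column of sample values without a sample, and plasma vesicle RNA was not analysed here. All values (100%, tolerance 1e-06) were whole multiples of 1 read, so whole reads were recovered.

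Groups were compared with limma 3.58.1 under R 4.3.3, on the log2 of TMM-scaled CPM + 0.5, a scale that understates changes of low genes, with trend and robust variances, 2-sided, 4 group means per tissue and Benjamini-Hochberg adjustment (threshold 0.05) over the 13505 muscle and 15400 brain genes that edgeR's filter kept. On recovered reads the edgeR 4.0.16 quasi-likelihood test called 253, 2, 100, 0, 846 and 2548 muscle genes (both genotypes, WT, KlHET, interaction, controls, after NMES) and 0, 0, 0, 0, 14 and 14 brain genes. DESeq2 1.42.0 called 471, 16, 218, 0, 1164 and 2800, and 0, 0, 0, 0, 56 and 32. TMM factors ran from 0.855 to 1.23 in muscle and 0.962 to 1.07 in brain.

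Correlations used 100000 permutations within groups. Exon lengths came from GENCODE M21 (GRCm38). A score was the mean log2 level of a list. Named genes were all members, the called genes of each pathway list (up to 4 per comparison and direction, by smallest p) and the 3 genes most correlated with each member, predicted symbols left out. A called gene of these lists is not reported here. Where a list had more called genes, these are named after their values were seen. The members and lists were chosen with earlier results of these data known. Other settings were RLE or total-count scaling, pseudocounts of 0.1 and 2, no filter, only the compared groups, a term for Xist or Y-linked genes, cell type scores, and leaving out each library. The model was tested on simulated data. Figures and correlations were made with Python 3.11.15, numpy 2.4.6, scipy 1.17.1 and matplotlib 3.10.9.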

Additional observations from a re-analysis of the deposited data

Results flagged for a closer look

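The level of Ostn in WT NMES muscle replicate 2, 34.16 CPM, lay far from the other 5 libraries of its group, which ran from 13.17 to 20.42 CPM. Its gap to the nearest took up 0.655 of the group's range. It was the only such library among 26 groups of 6 examined over the members of both tissues, and chance alone marks about 1 group in 20. Without it all 5 other WT NMES libraries still lay above the WT Control libraries, and the Ostn difference in WT was 0.83 in place of 1.00.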

How the results depend on the processing

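Of the recomputed counts of called members, 393 were the same as the value reported and 17 moved, all in muscle and all from 0. Over both genotypes, DESeq2 called 2 members (Ostn, Ctsb), the term for Xist or Y-linked genes 1 (Ctsb), adipocyte and slow fibre scores 1 (Fstl1), and leaving out 1 library between 0 and 2. For NMES in KlHET, DESeq2 called 1 (Ctsb), the Xist term 1 (Ctsb), the 2 scores 1 (Fstl1), and leaving out 1 library between 0 and 1. Between genotypes in controls the Xist term and the 2 scores each called 1 (Il15), and after NMES the Xist term called 1 (Il15). RLE or total-count scaling, both pseudocounts, no filter, the edgeR quasi-likelihood test, only the compared groups and the fibroblast score changed no count. The cause was not tested. Of the recomputed fold changes of members, 373 kept direction and side of the threshold and 19 crossed it in the same direction. Of all estimates of at least 0.1 in size, 2 turned sign under a setting that kept every library. Both did so with the fibroblast score, which was chosen after seeing the data: Metrnl over both genotypes (-0.10 to 0.03) and Fstl1 in WT (-0.32 to 0.04). When single libraries were left out, the brain Igf1 response in WT also turned, from -0.212 to 0.007 without WT NMES replicate 2. The order of levels per kb in WT Control kept every place with total-count scaling. No paired analysis was possible because the groups hold different mice. With 6 WT mice per group, the 95% interval of a WT response ran from -0.04 to 0.29 for Ctsb and from 0.28 to 1.72 for Ostn. Brain Il15 rested on as few as 5 reads.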

Other observations

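Il15 and Igf1 stood out in muscle by a property that the labels do not give. Xist exceeded the summed Y-linked genes in 21 of the 36 muscle libraries and fell short of them in 15, with both kinds in every group. This division was read from the data after their values were seen and is not a group of the study. With the 4 group means kept in the model, Il15 was higher in the 21 libraries by 0.36 ± 0.08 (log2, SE, limma adjusted p = 0.00106) and Igf1 lower (-0.69 ± 0.15, adjusted p = 0.00225), and 9.26% of all muscle genes were called. The other 5 members did not pass (adjusted p from 0.238 to 0.952).

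Igf1 averaged 14.5 ± 4.79 CPM (SD, n = 21) where Xist was higher and 22.7 ± 5.42 (n = 15) where it was not. In WT Control the 3 Xist-high libraries held 9.20 to 15.9 CPM of Igf1 and the other 3 held 19.6 to 25.4, and in WT NMES 10.1 to 17.8 against 20.5 to 24.6, so they did not overlap. In KlHET they did, at 7.96 to 20.4 against 13.0 to 24.7 CPM in controls and 6.59 to 21.1 against 15.7 to 35.5 after NMES. Il15 averaged 17.1 CPM in the 3 Xist-high WT Control libraries and 11.8 in the 7 Xist-high KlHET Control libraries, and 11.8 and 10.6 CPM in the 3 and 5 others. Whether the genotype difference of Il15 depends on this division was not tested. In brain, where 0.0779% of genes were called, neither passed (Il15 0.06 ± 0.13, adjusted p = 0.942, and Igf1 -0.24 ± 0.19, adjusted p = 0.852).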
